A study of Mus musculus with 2 samples.

Results

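Imprinted genes were examined in mouse embryonic stem cells (mESCs) of the iXist-ChrX-Dom line before Xist induction, as 38 autosomal genes chosen by a fixed list of symbols. All 38 were present in the count table, among 22556 genes of which 21630 were autosomal, and they came from 16 clusters on 9 chromosomes. The mRNA libraries came from 1 group with 2 replicates. The cells were a female XX F1 line of strain "Dom/129S x Cast", carrying a TetOn promoter in place of the endogenous Xist promoter on the Dom/129S allele. They were untreated, with 0 h of doxycycline. The line was 1 clone (A11B2), grown in serum and LIF on inactivated mouse fibroblast feeders that were removed by pre-plating. The labels do not say whether the replicates were separate cultures, so their spread may be technical. Because the series has no second condition, no treatment effect could be measured, and the questions here were which imprinted genes were on before Xist induction, how high they were, and how well the replicates fixed each level.

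Genomic imprinting is the expression of a gene from only the maternal or only the paternal copy. Most imprinted genes lie in clusters under an imprinting control region, a stretch of DNA that is methylated on one parental copy, and a cluster often holds protein-coding genes, a long noncoding RNA and genes expressed from the opposite copy. Many act on fetal growth, the placenta or the brain, and some are imprinted in particular tissues only. Counts here were totals over both alleles. The parental class given for each gene is therefore textbook background, and the allele of expression was not measured.

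Replicate 1 held 23716499 counts and replicate 2 held 20275749. For a gene without any counts, the limit is 3 counts, which is 0.126 CPM (counts per 1000000) in replicate 1 and 0.148 CPM in replicate 2, and such floors and all intervals cover counting error only. Levels are given as transcripts per 1000000 (TPM). They were averaged over the replicates, as in the study, and computed with the deposited length, which is the whole transcribed span with introns. Levels with exonic length are given as a second scale. Of 10 ES cell markers, 9 had at least 10 counts in each replicate, with summed levels of 3504 and 2826 CPM. By the exact binomial test described below, 8 of the 10 were lower in replicate 2, against 45.7% of all tested genes, but after a trend on GC content the log2 ratios of Klf4 and Sall4 turned to 0.54 and 0.27 and that of Nanog was -0.03. Pou5f1 had 1129 counts in replicate 1 and 142 in replicate 2, and Dppa5a had 2915 and 298, with log2 ratios of -1.99 and -2.65 after that trend, so the libraries stood apart in these genes, and the values of both replicates are given throughout. The samples carry the cell type label "mESC to NPC", and of 7 neural precursor markers 2 reached that count, with sums of 9.78 and 8.09 CPM and with Sox1 at 0. Of 12 feeder fibroblast markers, 2 reached it, with sums of 4.98 and 2.37 CPM and Lum at 0. Of 8 trophoblast markers, 3 reached it, with sums of 48.2 and 38.0 CPM and with Cdx2 and Tpbpa at 0. Primitive endoderm markers reached it for 5 of 7, with sums of 34.3 and 29.3 CPM. The part of such other cells in the levels below was not tested, and in bulk RNA fewer expressing cells and less RNA per cell cannot be told apart.

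Most of the listed genes were detected. At least 10 counts in each replicate were found for 31 of 38 (81.6%), against 56.1% of all autosomal genes. The median member stood at 12.9 TPM with span length and 12.2 TPM with exonic length, against 1.33 and 1.81 TPM for the median autosomal gene. Over detected genes alone the medians were 26.3 TPM for members and 10.9 TPM for autosomal genes with span length, but 17.3 and 16.8 TPM with exonic length. Among detected genes the medians thus lay close together on the exonic scale. With span length 20 of 38 members reached 10 TPM, against 29.2% of autosomal genes. Together the members took 0.625% of counts in replicate 1 and 0.669% in replicate 2.

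The plot of levels by cluster sets each gene beside its neighbours. Apart from Peg13, whose count could not be read, mean levels with span length ran from 0.0038 TPM for Slc22a3 to 1051 TPM for Rian, with wide ranges within single clusters.

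**Figure D1:**
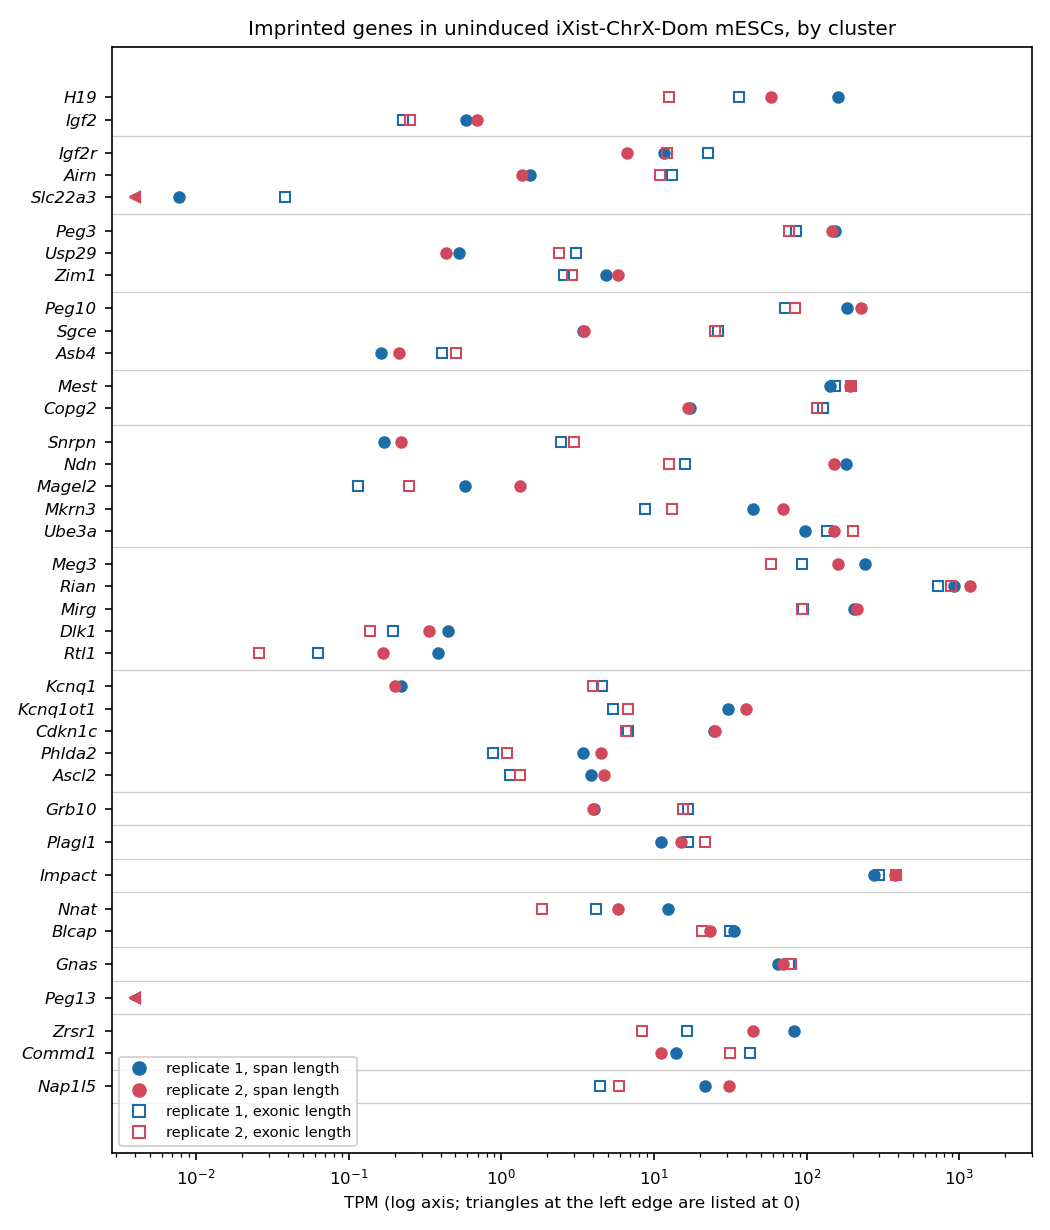
TPM of the 38 imprinted genes on a log axis, grouped by cluster, with filled circles for span length and open squares for exonic length, in blue for replicate 1 and red for replicate 2. Rian stood highest at 920 and 1183 TPM with span length, while Igf2, Dlk1 and Rtl1 lay below 1 TPM beside neighbours above 50 TPM on that scale, and triangles mark genes listed at 0.

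The highest imprinted RNA, Rian, came from the Dlk1-Dio3 region of chromosome 12. Its maternally expressed noncoding genes Meg3, Rian and Mirg are hosts of small nucleolar RNAs and microRNAs, and its paternally expressed genes include Dlk1, a transmembrane protein of the Notch ligand type, and Rtl1, a retrotransposon-derived gene needed in the placenta. Rian lies at chr12:109603944-109661711 (mm10) and was counted 78840 times in replicate 1 and 77211 times in replicate 2. It ranked 8 among all genes of the table by mean CPM, which ignores its length, and 115 and 156 by mean TPM with span and exonic length. It made up 0.332% (Wilson 95% interval 0.330 to 0.335) and 0.381% (0.378 to 0.384) of the libraries. Its level was 920 TPM in replicate 1 and 1183 TPM in replicate 2, a mean of 1051 ± 186 (SD, n = 2), or 809 ± 112 TPM with exonic length. Rian alone held 53.2% and 56.9% of the counts of all 38 members, and with Meg3 and Mirg 63.6% and 63.5%.

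Meg3 had 11013 and 5561 counts, or 242 and 160 TPM, a mean of 201 ± 57.6 (SD, n = 2), or 76.0 ± 24.6 TPM with exonic length. Mirg had 4402 and 3485 counts, or 205 and 213 TPM, a mean of 209 ± 5.71 (SD, n = 2), or 93.9 ± 1.04 TPM with exonic length. The means of Meg3 and Mirg lay within the spread of Meg3, and Rian was above both in each replicate. On the same strand as these RNAs, a further gene inside the region, 6430411K18Rik, had 63 and 7 counts.

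The paternally expressed genes of the region were nearly silent. Dlk1 had 7 and 4 counts, or 0.45 and 0.34 TPM. Rtl1 had 3 and 1 counts, or 0.39 and 0.17 TPM. Per kb of span, the summed counts of Meg3 were 515 times those of Dlk1 (exact 95% interval 288 to 1033) and 706 times those of Rtl1 (276 to 2591). With exonic length the fold from the mean log2 ratio was 411 for Dlk1 and 1385 for Rtl1, against 461 and 582 with span length. The annotated exonic length of Rtl1, 6358 bases, exceeds its counted span of 5236 bases, which raises its exonic fold. Rtl1 is transcribed opposite to Meg3, and the authors counted reads by strand, so reads of the opposite strand were not counted as Rtl1. Further along the region, Dio3, a deiodinase from the list of other imprinted genes, had 2 and 2 counts. Of the 9 genes of the table in this region 3 were detected, and those were Meg3, Rian and Mirg.

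The promoters of Meg3 and Rian are shown because Rian was the highest member, Meg3 is the first of the maternally expressed RNAs along the region, and their start regions differ in composition. Each window is the reference sequence of RefSeq (GRCm38.p6) from 250 bases before to 50 bases after an annotated start. Capitals mark TGCCGC, or GCGGCA on the other strand, the hexamer bound in its methylated form by ZFP57, a zinc finger protein that keeps imprints in ES cells.
Meg3 (chr12:109540746-109541045, plus strand): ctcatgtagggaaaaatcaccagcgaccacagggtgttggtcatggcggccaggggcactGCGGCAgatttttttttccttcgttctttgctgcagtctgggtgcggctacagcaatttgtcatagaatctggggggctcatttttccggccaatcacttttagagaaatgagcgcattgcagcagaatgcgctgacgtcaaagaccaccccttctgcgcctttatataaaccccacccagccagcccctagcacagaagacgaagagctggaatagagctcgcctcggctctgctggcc
Rian (chr12:109603695-109603994, plus strand): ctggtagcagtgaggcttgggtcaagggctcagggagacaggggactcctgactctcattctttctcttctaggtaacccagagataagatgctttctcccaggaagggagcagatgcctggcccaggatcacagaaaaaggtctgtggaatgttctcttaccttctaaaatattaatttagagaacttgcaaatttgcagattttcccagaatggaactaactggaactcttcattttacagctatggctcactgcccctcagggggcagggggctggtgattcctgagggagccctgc
The Meg3 window held 1 hexamer and 13 CpG sites. The Rian window held neither a hexamer nor a CpG. Over 32851 windows of the same length in the reference, 11.61% held the hexamer, and the median window had 7 CpG sites. Of the 38 members 30 had a window, and the one nearest the deposited start was used. Its own start lay up to 236 bases away, for Igf2, whose window does not reach the deposited start. Of these 30 windows 9 (30%) held the hexamer, and their median was 14.5 CpG sites. The hexamer windows were those of Meg3, Nap1l5, Igf2, Zim1, Copg2, Grb10, Plagl1, Nnat and Commd1. A match is a string of letters only, and neither binding nor methylation was measured.

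**Figure D2:**
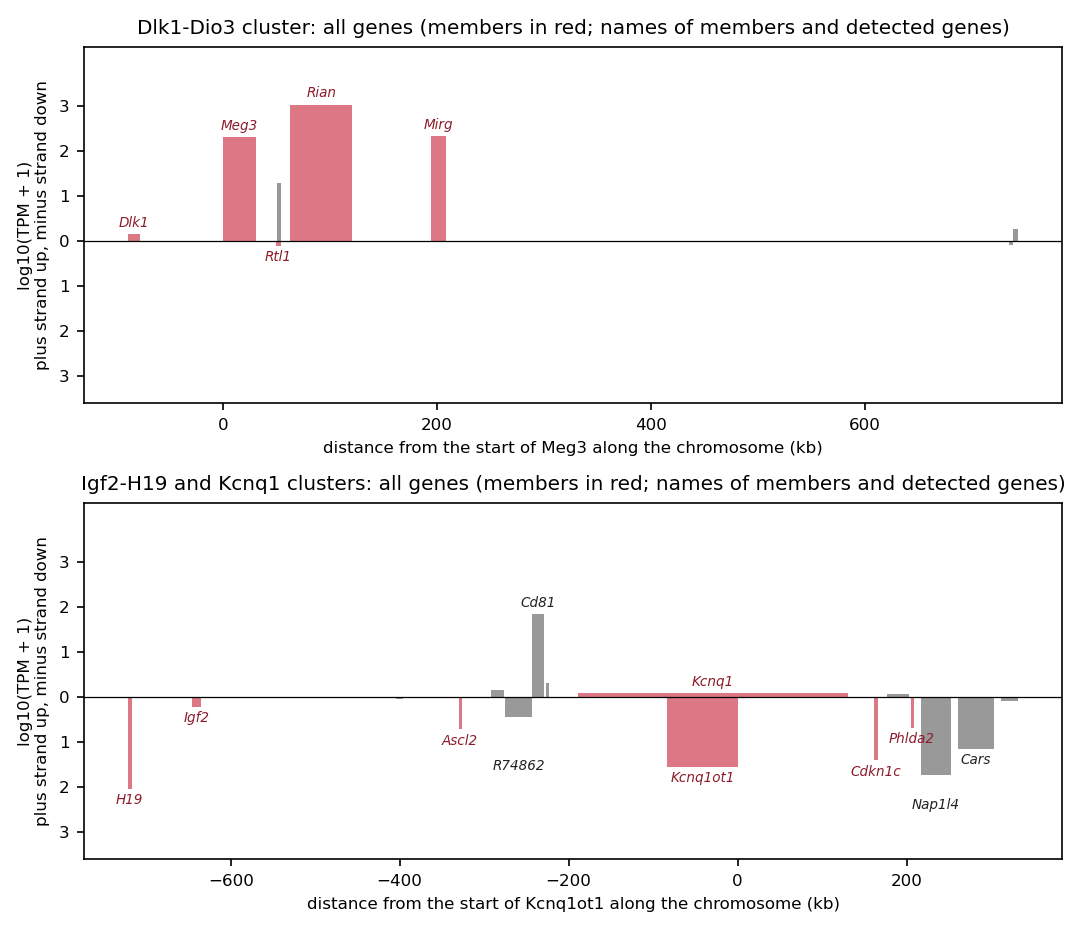
Position of each gene, in kb from the start of Meg3 (top) or Kcnq1ot1 (bottom), against log10(TPM + 1) with span length (mean of the replicates), plus-strand genes upward and minus-strand genes downward. In the Dlk1-Dio3 region the bars of Meg3, Rian and Mirg are the 3 tallest, and in the lower region H19 is tall beside a near-empty Igf2.

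The H19 and Igf2 cluster on chromosome 7 had the same arrangement of levels. H19, a maternally expressed noncoding RNA at chr7:142575531-142578146 (mm10), was counted 620 times in replicate 1 and 173 times in replicate 2. Its levels were 160 and 58.5 TPM, a mean of 109 ± 71.6 (SD, n = 2), so its height was poorly fixed, and with exonic length the mean was 24.3 ± 16.7 TPM. Igf2, a paternally expressed fetal growth factor, had 9 and 8 counts, or 0.59 and 0.69 TPM. H19 was therefore higher than Igf2 in both replicates, by 183 times per kb of span on summed counts (exact 95% interval 114 to 316), and the log2 ratio of Igf2 over H19 was -8.00 in replicate 1 and -6.32 in replicate 2.

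Several of the noncoding hosts carry microRNAs, small RNAs that repress mRNAs by pairing through a seed of bases 2 to 8. The RefSeq table held 19 hairpins on the strand of 8 members, 10 of them within Mirg and 3 within Rian. It held 38 mature sequences there, of which miR-1906 in Meg3 came without a hairpin entry. Mature miRNAs are not captured as such in a poly(A) library, so a host level is not a miRNA level. Sequences below show 1 product each for H19, Mest, Meg3, Rian and Mirg, with the seed in capitals. They also show the pair of Mirg products with a common seed, and a product from the strand opposite to Rtl1. Products of Igf2, Usp29 and Rtl1, the other members with a hairpin on their strand, are not shown.
miR-675-5p (chr7:142577112-142577133, minus strand): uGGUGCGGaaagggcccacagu
miR-335-5p (chr6:30741314-30741336, plus strand): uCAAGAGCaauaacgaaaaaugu
miR-770-5p (chr12:109563710-109563731, plus strand): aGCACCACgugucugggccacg
miR-370-3p (chr12:109618305-109618326, plus strand): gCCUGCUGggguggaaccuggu
miR-410-3p (chr12:109743764-109743784, plus strand): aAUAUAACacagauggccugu
miR-453 (chr12:109735669-109735692, plus strand): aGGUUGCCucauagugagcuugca
miR-496a-5p (chr12:109739132-109739152, plus strand): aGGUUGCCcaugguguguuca
miR-127-3p (chr12:109592888-109592909, plus strand): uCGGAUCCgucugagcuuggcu
H19 is the host of miR-675-5p, Mest of miR-335-5p, Meg3 of miR-770-5p, Rian of miR-370-3p, and Mirg of miR-410-3p, miR-453 and miR-496a-5p. The miR-453 and miR-496a-5p seeds are the same, GGUUGCC, and the 38 mature sequences held 37 different seeds. The hairpin of miR-127-3p lies across from Rtl1 on the opposite strand, as do 6 hairpins in all, and transcripts from that strand are not in the Rtl1 count.

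In the Kcnq1 domain, also on chromosome 7, the paternally expressed antisense RNA Kcnq1ot1 was the most counted member. It had 3780 and 3804 counts, or 30.5 and 40.3 TPM, a mean of 35.4 ± 6.94 (SD, n = 2). Kcnq1, a potassium channel gene whose span contains all of Kcnq1ot1 on the other strand, had 104 and 73 counts, or 0.22 and 0.20 TPM. Cdkn1c, which encodes the cyclin-dependent kinase inhibitor p57, had 99 and 77 counts, or 24.6 and 25.1 TPM. Here the size of the ratios depended on length. Kcnq1ot1 exceeded Kcnq1 by a log2 ratio of 7.12 and 7.63 with span length, but by 0.24 and 0.75 with exonic length, where Kcnq1 loses its long introns. Against Cdkn1c the log2 ratio was 0.30 and 0.67 with span length, and -0.34 and 0.03 with exonic length, so the order of Kcnq1ot1 and Cdkn1c did not hold on both scales. The annotated exonic length of Kcnq1ot1, 93092 bases, exceeds its counted span of 83438 bases, which lowers its exonic ratios.

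The placental genes of this domain rested on few counts. Ascl2, a transcription factor of trophoblast, had 14 and 13 counts, or 3.86 and 4.71 TPM. Phlda2, a growth-restraining gene of the placenta, had 5 and 5 counts, or 3.45 and 4.52 TPM. With exonic length their means, 1.24 and 0.99 TPM, lay below the autosomal median of 1.81 TPM, and with span length above it. Of the 20 genes of the table between H19 and the far side of the Kcnq1 domain 9 were detected. Among them were Cd81, at 67.8 and 66.7 TPM, and Nap1l4, at 62.1 and 42.1 TPM, both from the list of other imprinted genes.

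Among genes outside these noncoding clusters, Impact on chromosome 18, a paternally expressed regulator of translation, was the highest protein-coding member on both length scales. It had 8494 and 8815 counts, or 277 and 377 TPM, a mean of 327 ± 70.9 (SD, n = 2), and 344 ± 61.7 TPM with exonic length.

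The Peg3, Peg10 and Mest clusters each had a high paternally expressed gene. Peg3, a zinc finger protein of growth and maternal behaviour, had 5580 and 4034 counts, or 154 and 146 TPM, a mean of 150 ± 5.53 (SD, n = 2). Zim1, its maternally expressed neighbour, had 152 and 137 counts, or 4.88 and 5.78 TPM. The log2 ratio of Peg3 over Zim1 was 4.97 and 4.65 with span length, and 5.04 and 4.72 with exonic length, so its size hardly depended on length.

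Usp29, a paternally expressed deubiquitinase gene that starts 163 bases from Peg3 on the other strand, had 185 and 116 counts. Its level was 0.53 and 0.43 TPM, and with exonic length its mean was 2.74 ± 0.479 TPM, against 81.1 ± 6.10 TPM for Peg3 (SD, n = 2). The divergent genes thus lay far apart in level on either scale, with the higher gene the same in both replicates. Their shared start region is shown from the Peg3 side.
Peg3 (chr7:6730370-6730669, minus strand): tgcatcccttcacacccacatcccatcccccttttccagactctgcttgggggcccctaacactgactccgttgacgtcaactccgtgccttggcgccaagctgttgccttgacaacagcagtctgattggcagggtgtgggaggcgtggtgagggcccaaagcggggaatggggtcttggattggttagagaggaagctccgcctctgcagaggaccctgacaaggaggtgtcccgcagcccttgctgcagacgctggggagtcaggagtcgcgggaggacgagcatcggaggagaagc
It held 13 CpG sites, a number that 37.91% of all windows reach or exceed, and no hexamer.

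Peg10, a retrotransposon-derived gene needed for the placenta, had 3620 and 3388 counts, or 185 and 227 TPM, a mean of 206 ± 29.9 (SD, n = 2). With exonic length the mean of Peg10 was 78.1 ± 8.37 TPM. Its divergent partner Sgce, the epsilon-sarcoglycan gene whose start lies 101 bases away, had 372 and 286 counts, or 3.44 and 3.47 TPM (26.4 and 25.2 TPM with exonic length). Asb4, the maternally expressed gene of this cluster, had 12 and 12 counts, or 0.16 and 0.21 TPM. Peg10 exceeded Asb4 by a log2 ratio of 10.09 and 9.99 with span length and 7.42 and 7.32 with exonic length, a ratio whose interval from summed counts ran from 737 to 1713 times per kb of span.

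Mest, which encodes a protein of the hydrolase fold, had 3182 and 3262 counts, or 143 and 193 TPM, a mean of 168 ± 35.1 (SD, n = 2). Copg2, a coatomer subunit gene that overlaps the end of Mest on the other strand, had 3803 and 2798 counts, or 17.2 and 16.6 TPM. With exonic length Copg2 stood at 128 and 117 TPM, and the log2 ratio of Mest over Copg2 fell from 3.06 and 3.54 to 0.26 and 0.73. Mest was the higher of the pair in each replicate on both scales. RefSeq gives Mest further starts inside the gene, at nearly the same place. The window of the first is shown because it held 2 hexamers and 17 CpG sites, while the window at the deposited start held no hexamer. Nap1l5 also had a window with 2 hexamers and 17 CpG sites. Of all windows in the reference 1.531% held 2 or more.
Mest, inner start (chr6:30737800-30738099, plus strand): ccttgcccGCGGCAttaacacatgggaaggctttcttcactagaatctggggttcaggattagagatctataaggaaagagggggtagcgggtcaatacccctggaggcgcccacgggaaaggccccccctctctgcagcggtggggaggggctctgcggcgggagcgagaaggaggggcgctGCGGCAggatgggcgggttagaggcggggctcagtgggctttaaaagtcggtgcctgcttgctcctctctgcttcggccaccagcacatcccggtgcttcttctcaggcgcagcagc

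In the Snrpn-Ube3a domain, known from the Prader-Willi and Angelman syndromes, levels were split among the members. Ube3a, the ubiquitin ligase expressed from the maternal copy in neurons, had 11222 and 13341 counts, or 97.0 and 151 TPM, a mean of 124 ± 38.5 (SD, n = 2). Ndn, a paternally expressed gene of the MAGE family, had 444 and 281 counts, or 181 and 151 TPM, a mean of 166 ± 21.7 (SD, n = 2). With exonic length Ndn stood at 14.3 ± 2.41 TPM and Ube3a at 169 ± 46.1 TPM. Ndn is a short gene without introns, but its annotated exonic length, 3694 bases, exceeds its counted span of 1652 bases. The exonic value of Ndn thus divides its counts by more bases than were counted. Mkrn3, a makorin RING finger gene, had 168 and 201 counts, or 44.4 and 69.8 TPM (8.77 and 13.1 TPM with exonic length). Magel2, which neighbours Ndn and is of the same family, had 4 and 7 counts.

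The count of Snrpn, which encodes a core protein of the spliceosome, could not be read as a level. It was 40 and 39, or 0.17 and 0.22 TPM, but 89.3% of its exonic bases lie within Snurf on the same strand, for which the table lists 1 and 0 counts. Fragments falling in both genes may have been given to neither. The ratio to Ube3a, -9.13 and -9.42 on the log2 scale with span length, carries the same limit. Of the 4 RefSeq windows of Snrpn, only the one at the start of Snurf contained a hexamer, and it is shown for that reason.
Snrpn, inner start (chr7:60005150-60005449, minus strand): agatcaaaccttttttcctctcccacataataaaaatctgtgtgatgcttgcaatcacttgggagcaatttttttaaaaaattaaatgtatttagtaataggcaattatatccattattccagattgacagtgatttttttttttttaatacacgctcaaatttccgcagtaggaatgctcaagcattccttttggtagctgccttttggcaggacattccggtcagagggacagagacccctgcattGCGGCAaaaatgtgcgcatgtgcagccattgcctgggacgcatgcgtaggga
Peg13 was listed at 0 in both replicates, but its whole span lies within Trappc9 on the same strand, so that 0 could not be read either.

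At the Igf2r locus on chromosome 17 the coding gene was above the noncoding RNA. Igf2r, the maternally expressed receptor that clears IGF2, had 1505 and 653 counts, or 11.6 and 6.62 TPM. Airn, the paternally expressed RNA antisense to it, had 272 and 183 counts, or 1.55 and 1.37 TPM. The log2 ratio of Airn over Igf2r was -2.91 and -2.27 with span length and -0.78 and -0.14 with exonic length. Airn is known as a mostly unspliced RNA, and which length scale suits it in these libraries was not tested. Slc22a3, a cation transporter gene imprinted in the placenta, had 1 and 0 counts.

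The remaining pairs were genes nested in a host of the opposite strand. Nnat, a paternally expressed proteolipid gene within Blcap, had 45 and 16 counts, or 12.4 and 5.78 TPM, and Blcap had 496 and 262, or 33.4 and 23.2 TPM. Blcap was higher in both replicates, with a log2 ratio of Nnat over Blcap of -1.42 and -1.96 with span length and -2.90 and -3.44 with exonic length. Zrsr1, a splicing factor gene that arose by retrotransposition within Commd1, had 552 and 227 counts, or 82.8 and 44.7 TPM. Commd1, a gene of copper handling, had 1720 and 1031 counts, or 14.0 and 11.1 TPM. The log2 ratio of Zrsr1 over Commd1 was 2.56 and 2.02 with span length but -1.38 and -1.92 with exonic length, so its direction turned with the length used. Nap1l5, which lies wholly within Herc3, had 61 and 66 counts, or 21.7 and 30.8 TPM (4.40 and 5.92 TPM with exonic length).

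Of the single-gene loci, Gnas, whose transcripts encode the stimulatory G protein alpha subunit and are imprinted in different ways, had 5988 and 4978 counts, or 64.7 and 70.6 TPM. Plagl1, a zinc finger growth regulator, had 680 and 700 counts, or 11.2 and 15.1 TPM. Grb10, an adaptor of insulin receptor signalling, had 640 and 484 counts, or 4.04 and 4.01 TPM (16.6 and 15.6 TPM with exonic length). None of these 3 loci has a partner in the list.

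Over all 12 pairs of a paternally and a maternally expressed gene, the paternal one was higher in 6 with span length and in 4 with exonic length. Without the pair of Snrpn, whose count could not be read, it was higher in 6 of 11 with span length. The 20 paternally expressed members had a median of 11.1 TPM with 15 detected, and the 17 maternally expressed members a median of 12.5 TPM with 15 detected. On the exonic scale these medians became 8.50 and 17.3 TPM. Without Peg13 and Snrpn, the unreadable counts of the paternal class, its median over 18 members was 19.7 TPM with span length and 11.5 TPM with exonic length. The log2 ratio of the medians was -0.17 and became 1.45 when members below 1 TPM were left out and 0.65 without Peg13 and Snrpn, so neither class stood above the other in a stable way. No test was made, because members of 1 cluster are not independent.

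**Figure D3:**
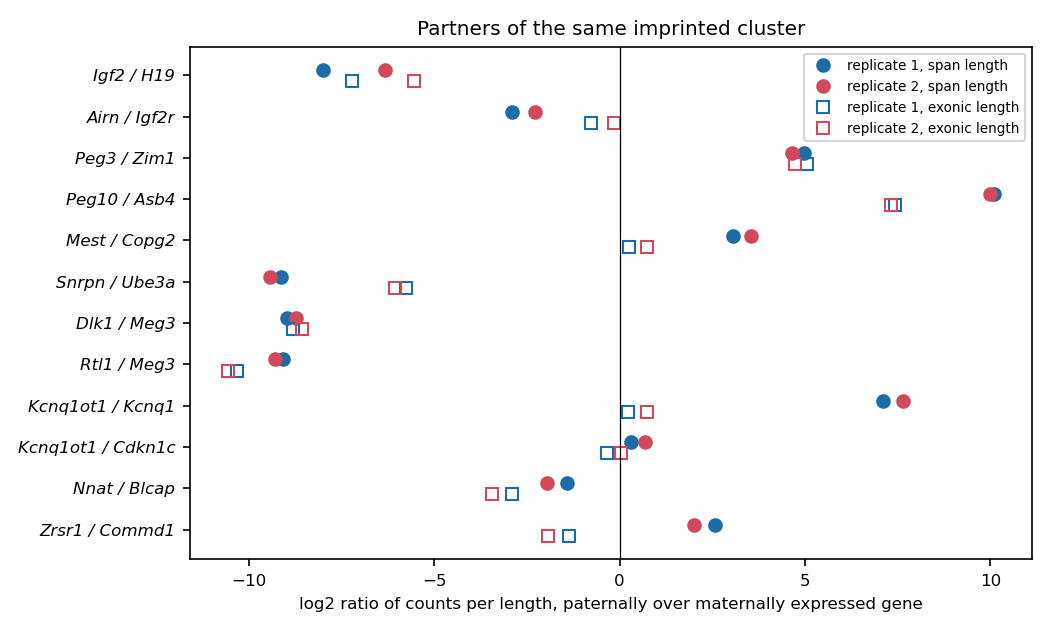
Log2 ratio of counts per length, paternally over maternally expressed gene of the same cluster, for 12 pairs, with circles for span length and squares for exonic length, in blue for replicate 1 and red for replicate 2. Dlk1 and Rtl1 against Meg3, and Igf2 against H19, lie far left on both scales, Peg3 and Peg10 far right, and the Zrsr1 pair crosses 0 with the length used.

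The replicates fixed these levels unevenly. For every gene, the split of its counts between the libraries was set against the split of the totals in an exact binomial test (two-sided, Benjamini-Hochberg adjustment over the 14536 genes with 10 or more counts in all), which compares the 2 libraries rather than any conditions. It separated 21 of 35 tested members (60.0%), close to the 60.8% of all genes. Of these, 13 were lower in replicate 2 (37.1%, against 45.7% of all genes) and 8 higher (22.9%, against 15.1%). The test left 14 members below the threshold, and 3 with fewer than 10 counts were not tested.

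Members lower in replicate 2 by the largest log2 ratios of CPM were H19 (-1.61, exact binomial adjusted p = 1.7e-44), Nnat (-1.24, adjusted p = 0.0038), Zrsr1 (-1.05, adjusted p = 3.8e-21), Igf2r (-0.98, adjusted p = 1.4e-49) and Meg3 (-0.76, adjusted p = 2.8e-233). Members higher in replicate 2 were led by Mkrn3 (0.48, exact binomial adjusted p = 0.0030), Ube3a (0.48, adjusted p = 7.4e-145), Impact (0.28, adjusted p = 4.7e-36), Plagl1 (0.27, adjusted p = 0.0013) and Mest (0.26, adjusted p = 1.7e-12). These ratios are on CPM after adding 0.5 counts, and the ratio of TPM with span length runs 0.17 higher on the log2 scale for every gene. Over the 9283 autosomal genes that had 50 or more counts per replicate, this log2 ratio had a median of -0.18 and central 95% limits of -1.54 and 0.48. Of 27 members with that many counts 2 lay outside these limits, H19 below and Mkrn3 just above.

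The direction of a call depended on the expected ratio. With TMM factors 17 of the 35 tested members were called, 7 lower and 10 higher, against 57.7% of all tested genes. With DESeq2 size factors 21 were called, 7 lower and 14 higher, against 57.8% of all tested genes. After a trend on GC content 19 were called, 10 lower and 9 higher, against 45.6% of all tested genes. Higher calls made up 24.9% of calls over all genes in the main test, 46.7% with TMM, 54.8% with DESeq2 size factors and 52.5% after the GC trend. H19, Igf2r, Meg3, Zrsr1 and Commd1 were lower, and Peg10, Mest, Mkrn3, Ube3a, Plagl1 and Impact higher, under all 4 expected ratios. The share of all genes that kept their direction under all 4 was not counted, so this is not shown to be particular to these members. Sizes changed too. After the GC trend the log2 ratio was -0.88 for H19, -0.46 for Igf2r, -0.37 for Meg3 and 0.15 for Ube3a, but 0.92 for Mkrn3, 0.53 for Mest and 0.47 for Plagl1. Calls for Peg3, Copg2, Rian and Mirg turned direction among them, and Nnat was not called after the GC trend (exact binomial adjusted p = 0.41). Across 9241 autosomal genes, which are not independent, the log2 ratio ran against GC content with a Spearman's rho of -0.65.

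**Figure D4:**
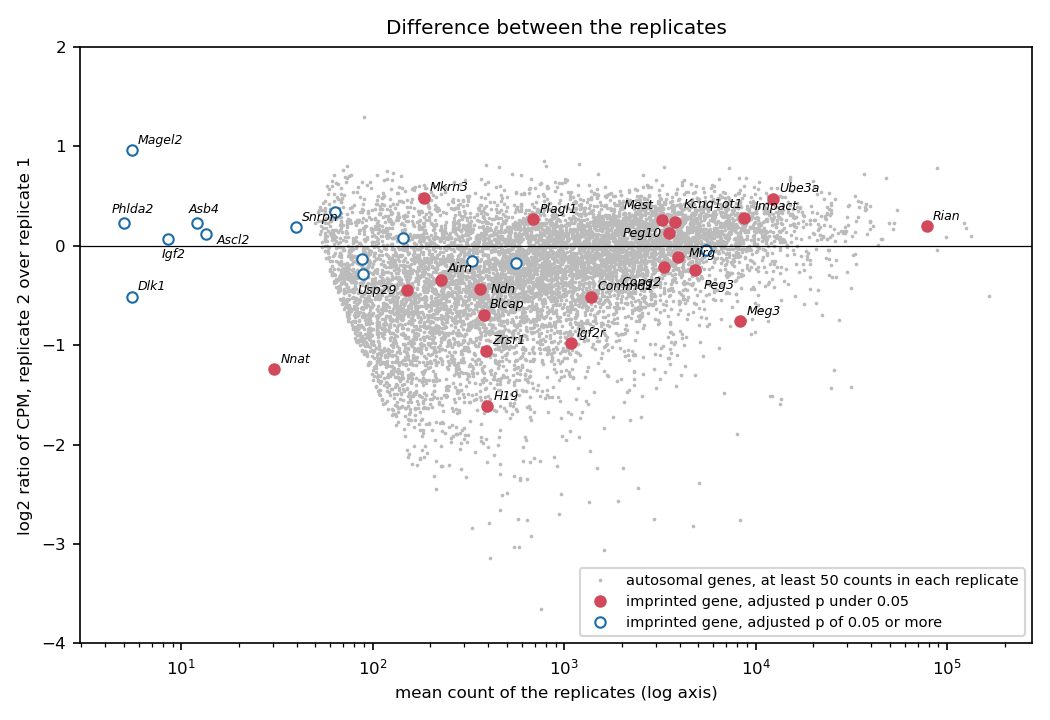
Log2 ratio of CPM, replicate 2 over replicate 1, against the mean count on a log axis, for autosomal genes (grey) and imprinted genes with an adjusted p under 0.05 (red) or not (open). H19 lies lowest of the red points at -1.61, and genes near the left edge such as Magel2, Phlda2 and Dlk1 rest on fewer than 10 counts per replicate.

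Genes around the members were described from fixed lists. Of 38 other imprinted genes 36 were in the table, 20 had at least 10 counts in each replicate, and 5 were at 0 in both. Their median was 1.34 TPM, and the highest was Slc38a4, an amino acid transporter gene, at 143 and 183 TPM, followed by Cd81 and Nap1l4. The share detected, 55.6%, and the median with span length were close to those of all autosomal genes (56.1% and 1.33 TPM). With exonic length the medians were 2.85 TPM for the list and 1.81 TPM for autosomal genes. Between the replicates 3 of 24 tested genes were higher in replicate 2 (12.5%, against 15.1% of all genes) and 7 lower (29.2%, against 45.7%), directions that depend on the expected ratio as above.

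All 8 factors that maintain imprints were detected. Zfp57, which binds the methylated hexamer, had 12558 and 7221 counts, or 885 and 668 TPM, a mean of 776 ± 153 (SD, n = 2), the highest of the 8. Zfp445, a second imprint-binding zinc finger protein, stood at 246 and 275 TPM. Trim28, the corepressor recruited by both, was at 167 and 58.0 TPM, with a log2 ratio of CPM of -1.69, or -0.93 after the GC trend. The DNA-binding insulator protein gene Ctcf was at 99.2 and 116 TPM, and Uhrf1, which brings the maintenance methyltransferase to replicating DNA, at 107 and 119 TPM. Dppa3, which protects maternal methylation in the zygote, was at 106 and 39.1 TPM, Smchd1, a chromatin protein of imprinted clusters and the inactive X, at 52.8 and 67.1 TPM, and Dnmt1, the maintenance methyltransferase, at 18.6 and 14.5 TPM. By the exact binomial test 4 of the 8 were lower in replicate 2 (50%, against 45.7% of all genes) and 1 higher (12.5%, against 15.1%). For Dnmt1 the log2 ratio turned from -0.53 to 0.13 after the GC trend.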

How the data were processed

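Polyadenylated RNA was measured in 2 replicates of 1 group. The authors deposited raw counts per gene from featureCounts, whose version was 1.5.2 per the file headers, run reverse-stranded and over whole transcript spans on mm10. The submitters' processing notes also list Bowtie2 2.3.2 and STAR 2.4.2a, whose use on these mRNA libraries is not given in the sources used here. The deposited length column equals the span. Columns were matched to samples by name, although a letter b stands in the labels' descriptions and not in the column names.

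CPM and TPM were computed from the deposited counts, with span length or the exonic length of the GENCODE basic annotation of GRCm38 (98.1% of genes matched). Exons of Ndn, Rtl1 and Kcnq1ot1 in that annotation extend past the counted span. Low values were not filtered out of medians. Replicates were compared with an exact binomial test (scipy 1.17.1, adjusted p threshold 0.05). It was tested on simulated counts that held counting error only, without the trend on GC content between these libraries, so its behaviour under that trend was not tested. TMM factors came from edgeR 4.0.16 and size factors from DESeq2 1.42.0, with R 4.3.3. Values are given in full for the 10 members with the highest mean TPM, for both genes of 12 pairs, and for the 5 largest replicate differences in each direction. Members, lists and tests were chosen with earlier results of these data known. Other length scales, filters, pseudocounts, expected ratios and single replicates were tried as alternatives.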

Additional observations from a re-analysis of the deposited data

How the results depend on the processing

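The log2 ratio of the median member to the median autosomal gene was 3.27 with span length. It was 2.76 with exonic length, 3.10 to 3.70 with either replicate left out, and 1.28 when genes under a mean of 1 TPM were dropped. With 10 or more counts required per replicate, a filter chosen after seeing the data, it was 1.27. Both filters leave out genes that are off. The log2 ratio of paternal to maternal medians, -0.17, was -1.03 with exonic length and -0.89 with CPM, and 1.45 over members with a mean TPM of at least 1, a filter that leaves fewer members. Without Peg13 and Snrpn, left out after seeing the data, it was 0.65, and -0.59 with exonic length. With exonic length the log2 ratio of Kcnq1ot1 over Cdkn1c was -0.15 and that of Zrsr1 over Commd1 was -1.65, both turned. The first is lowered because the annotated exonic length of Kcnq1ot1, 93092 bases, exceeds its counted span of 83438 bases. Over 8 summary values, 34 of 43 alternatives stayed within 1.5 times a count or within 1 SD of the replicates for a ratio, and over 12 pair ratios 38 of 48 did. Of these 48, the alternatives that left out a replicate were bound to stay. Either replicate alone always lies within 1 SD of the mean of both, so they say nothing about stability. For the replicate test the 34 of 43 covers the number of calls, not their directions, which the text gives. With exonic length alone, 9 of the 12 pair ratios moved beyond the replicate spread or turned. The replicate test could not be run with a replicate left out. No paired analysis was possible because all samples belong to 1 group. Members with under 10 counts are known only as low, and with 2 replicates of 1 clone no level here can be carried to other lines.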
